A study of Mus musculus with 22 samples.

Results

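IGHV1-72 is a variable (V) gene segment of the mouse immunoglobulin heavy chain, and its use was followed through every heavy-chain library of a study of germinal center B cells. A cell or sequence was counted as IGHV1-72 when the deposited V call of its productive heavy chain named that gene. In the single-cell libraries 2234 of 5503 cells with a productive heavy chain carried it, namely 1107 of 1947 cells in NP 1, 966 of 1541 in NP 2 and 161 of 2015 in OVA 1. In the bulk libraries 142 of 8520 sequences carried it.

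All cells came from spleens of male C57BL/6 mice labelled as 8 weeks old. Mice were immunized intraperitoneally with the hapten NP coupled to the carrier KLH, or with ovalbumin (OVA), and both antigens were given with alum and LPS. For NP, germinal center B cells that also bound NP were sorted on day 13 (libraries NP 1 and NP 2), whereas for OVA the single-cell library OVA 1 held all germinal center B cells with no selection for antigen binding. On which day OVA 1 was sorted is not stated in the labels or protocols. The 16 bulk heavy-chain libraries came from OVA-binding germinal center B cells at day 7 or day 13, with 4 libraries each under the letters n and p at each day. The meaning of the letters is not given, nor whether libraries came from separate mice, so p-values measure the spread between libraries, which may be technical. With 2 NP libraries and 1 OVA library, antigen, sort gate and library cannot be told apart, and no test was made between them.

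A heavy chain is assembled from a V, a D and a J segment, and the join forms the third complementarity-determining region (CDR3), the most variable part of the antigen-binding site. IGHV1-72 is the classical heavy-chain V gene of the response of C57BL/6 mice to NP, where it is known to pair with a lambda 1 light chain and to be joined to the D segment IGHD1-1 and to IGHJ2. A tyrosine at the start of the D-encoded part of CDR3, and a change of the tryptophan at codon 33 to leucine, are features known from anti-NP antibodies of this kind. In germinal centers V genes also collect somatic mutations, which are among the changes on which selection for affinity acts.

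The germline sequence is shown because V mutations are numbered along it. Ighv1-72 lies on mouse chromosome 12 at chr12:115757984-115758277 in GRCm38.p6 (RefSeq), and the deposited germline alignments of the bulk libraries gave its 294 bases. Capitals mark CDR1 (bases 76 to 99) and CDR2 (bases 151 to 174).
IGHV1-72 germline: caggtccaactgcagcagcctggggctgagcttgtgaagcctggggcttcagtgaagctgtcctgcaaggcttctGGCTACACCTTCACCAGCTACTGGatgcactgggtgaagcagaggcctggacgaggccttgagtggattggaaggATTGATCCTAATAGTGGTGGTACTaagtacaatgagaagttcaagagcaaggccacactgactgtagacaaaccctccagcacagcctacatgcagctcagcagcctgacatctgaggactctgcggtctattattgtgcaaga

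The D segment is shown because runs of it were searched for in CDR3.
IGHD1-1: tttattactacggtagtagctac

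The next 5 CDR3 sequences are the ones with the most cells among those found in both NP libraries. All sequences run from the V-encoded cysteine to the J-encoded tryptophan, and capitals mark codon 4, the first codon after the V-encoded start.
Shared 1: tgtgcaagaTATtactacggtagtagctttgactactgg
Shared 2: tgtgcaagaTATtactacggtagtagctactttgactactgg
Shared 3: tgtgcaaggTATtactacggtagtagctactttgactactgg
Shared 4: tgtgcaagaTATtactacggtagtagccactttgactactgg
Shared 5: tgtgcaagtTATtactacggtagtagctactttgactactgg

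The most frequent CDR3 of each NP library and the 4 most frequent of OVA 1 are shown to set the NP and OVA forms of IGHV1-72 side by side.
NP 1 first: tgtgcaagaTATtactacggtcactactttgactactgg
NP 2 first: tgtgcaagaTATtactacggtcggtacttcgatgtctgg
NP 2 next: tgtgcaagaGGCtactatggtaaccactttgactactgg
OVA 1 first: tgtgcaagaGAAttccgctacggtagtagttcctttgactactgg
OVA 1 next: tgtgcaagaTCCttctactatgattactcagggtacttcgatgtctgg
OVA 1 then: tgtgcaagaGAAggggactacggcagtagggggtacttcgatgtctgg
OVA 1 last: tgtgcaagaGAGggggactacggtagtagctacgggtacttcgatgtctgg

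Members were counted as distinct rearrangements, meaning combinations of V gene, J gene and CDR3 nucleotides. Mutated descendants of 1 cell can therefore count as several rearrangements. The single-cell libraries held 1236, 1030 and 1143 rearrangements (NP 1, NP 2, OVA 1), and the bulk libraries 176 to 607 each, 5463 in all. How many reads or molecules stand behind a bulk sequence is unknown. Of the bulk libraries, p day 7 replicate 2 and p day 13 replicate 2 shared 164 rearrangements, which is 44.4% and 60.7% of each. The other 63 pairs of libraries from different days shared 0 to 32 (median 3). High values gathered in a few libraries. The library n day 7 replicate 1 shared 15 to 32 with each day 13 library, and p day 7 replicate 4 shared 6 to 30. Sharing between days was therefore not limited to the p replicate 2 pair. At day 7 an n and a p library of the same number shared 38 to 48, against 0 to 5 for other pairs of that day, and at day 13 the values were 4 to 18 and 1 to 19. The bulk share, mutation and CDR3 length results are also given without both p replicate 2 libraries. The single-cell libraries shared 1 to 5 cell barcodes per pair, none with the same heavy-chain rearrangement.

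Counted as rearrangements, IGHV1-72 was the most frequent V gene in all 3 single-cell libraries, in OVA 1 by a small margin. Its share was far higher in the NP libraries than in OVA 1. In NP 1 it made up 57.5% of rearrangements (711 of 1236, 95% Clopper-Pearson interval 54.7 to 60.3). The value in NP 2 was 59.2% (610 of 1030, 56.2 to 62.2), and that in OVA 1 was 7.35% (84 of 1143, 5.90 to 9.02). The intervals, which cover counting error only, of the NP libraries overlapped each other and lay far above that of OVA 1. The next V gene was IGHV14-3 at 12.1% and 10.5% in NP 1 and NP 2, and IGHV3-6 at 6.56% in OVA 1. Counted as cells, the IGHV1-72 shares were 56.9%, 62.7% and 7.99%. Counted as groups of similar CDR3 (same J gene and length, at most 15% differing bases), they were 31.3%, 36.2% and 2.64%. In OVA 1 the share of IGHV3-6 lay within the interval of IGHV1-72. Of the 84 IGHV1-72 rearrangements there, 27 belonged to a single such group, so the first rank in OVA 1 is not firm.

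**Figure D1:**
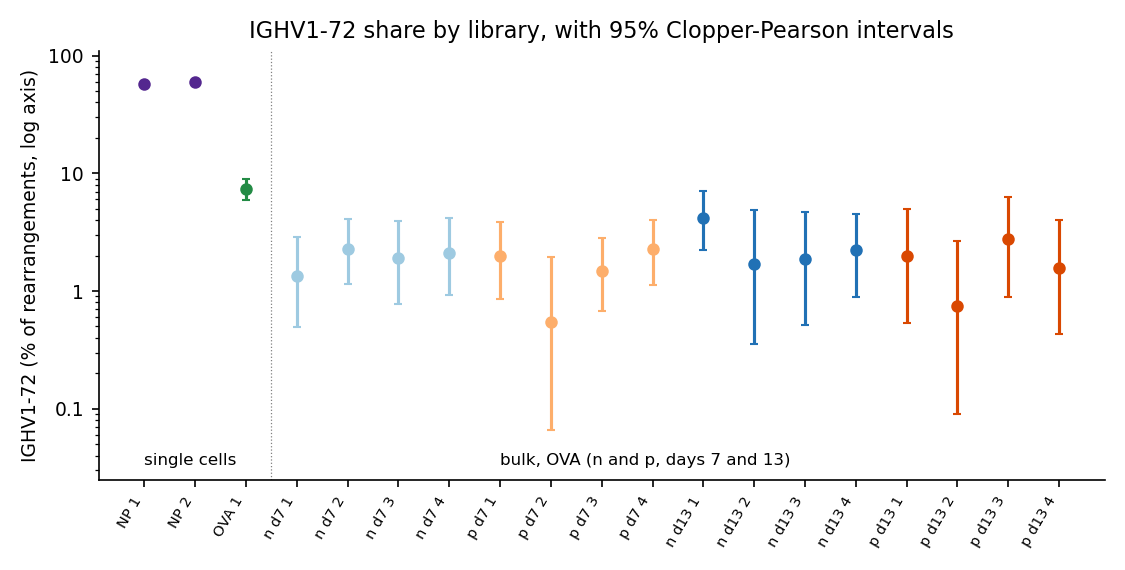
Share of IGHV1-72 among heavy-chain rearrangements (percent, log axis) in each of the 3 single-cell and 16 bulk libraries, with points for libraries and bars for 95% Clopper-Pearson intervals. NP 1 and NP 2 sit at 57.5% and 59.2%, OVA 1 at 7.35%, and the bulk OVA libraries between 0.542% and 4.17%.

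The separately deposited gene table bore on the V calls. Among cells with at least 500 genes and at most 10% mitochondrial UMIs, Ighv1-72 transcripts were found in 98.7% (NP 1), 96.9% (NP 2) and 98.7% (OVA 1) of cells called IGHV1-72. Cells called with another V gene had such a transcript in 4.39%, 2.69% and 0.988% of cases. The median depth of the 2 kinds of cell was similar, at 7068 and 6885 UMIs in NP 1, 9097 and 8077 in NP 2, and 8023 and 8252 in OVA 1. Doublets were not called, and the source of the transcripts in cells called with another V gene was not tested. Of the germinal center markers, Bcl6, the regulator that defines the germinal center fate, was read in IGHV1-72 cells at 99.4, 69.2 and 95.3 CPM (UMIs scaled to the total of the cells; NP 1, NP 2, OVA 1). S1pr2, a receptor that keeps B cells in the germinal center, was at 250.2, 196 and 219.8 CPM. Among the other listed germinal center markers some were lowest in OVA 1 and some were not. Bcl6 and S1pr2 alone therefore do not show an even signal across the libraries. The 7 T cell markers summed to 2.36, 2.03 and 0.769 CPM, with Cd3e at 0 in all 3 libraries. The 5 plasma cell markers summed to 957, 1060 and 633 CPM, of which Jchain gave 841 in NP 1, whereas Sdc1 was at 0.262 in NP 1 and 0 in NP 2 and OVA 1. The myeloid list reached 71.5 CPM in OVA 1 and 1.57 and 0.676 in NP 1 and NP 2, and its part in the results was not tested. The B cell list summed to 6041, 6552 and 6959 CPM, the memory or naive B cell list to 199, 194 and 317, the NK cell list to 0.262, 0 and 0.769, and the erythroid list to 91.8, 23.5 and 86.1 (NP 1, NP 2, OVA 1).

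IGHV1-72 was joined mostly to IGHJ2 in the NP libraries. IGHJ2 made up 72.3% of IGHV1-72 rearrangements in NP 1 (514 of 711, interval 68.8 to 75.6) and 69.3% in NP 2 (423 of 610, 65.5 to 73.0). In OVA 1 it made up 36.9% (31 of 84, 26.6 to 48.1). There IGHJ1 followed at 31.0%, IGHJ4 at 21.4% and IGHJ3 at 10.7%. Rearrangements with other V genes used IGHJ2 at 27.6%, 32.6% and 31.3% in the same libraries, and in the NP libraries the intervals of those values (23.8 to 31.7 and 28.2 to 37.3) lay below those of IGHV1-72. In OVA 1 the intervals of IGHV1-72 and of the other V genes (28.5 to 34.1) overlapped. All these intervals treat rearrangements as independent, although mutated descendants of 1 cell can count as several, so they are too narrow to serve as a test.

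The IGHJ2 share of OVA 1 rested largely on a single group of similar CDR3. That group held 74 cells (46.0% of IGHV1-72 cells) and 27 rearrangements, all with IGHJ2 and a CDR3 of 15 amino acids. Of its 74 cells 73 were IgG2b, against 1 of the 87 remaining IGHV1-72 cells, and 70 of the 72 with a light chain read used IGKV8-27. The sequence printed as OVA 1 first was its most frequent member, with 42 cells. Without the group, IGHJ2 was found in 4 of 57 rearrangements (7.02%), while IGHJ1 stood at 45.6%, IGHJ4 at 31.6% and IGHJ3 at 15.8%. The largest groups of NP 1 and NP 2 were also of IGHJ2. They held 297 and 244 cells (26.8% and 25.3% of IGHV1-72 cells) and 156 and 174 rearrangements. Without them IGHJ2 made up 64.5% and 57.1%. Counted as groups of similar CDR3, the IGHJ2 shares of IGHV1-72 were 41.3%, 40.0% and 23.5%. Shares by groups were not computed for the other V genes.

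**Figure D2:**
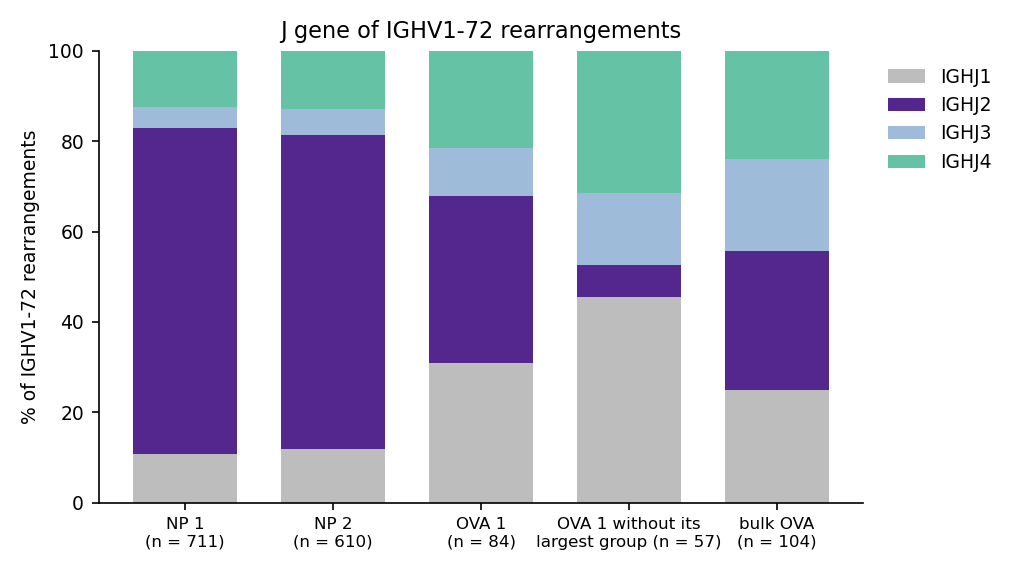
Stacked bars of the J gene of IGHV1-72 rearrangements (percent) in NP 1, NP 2, OVA 1, OVA 1 without its largest group of similar CDR3, and the 16 bulk OVA libraries pooled, where a rearrangement counts for each library that holds it. IGHJ2 takes 72.3% and 69.3% in the NP libraries against 36.9%, 7.02% and 30.8% in the others.

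The CDR3 of IGHV1-72 was shorter in the NP libraries. Its length, counted from the cysteine to the tryptophan, averaged 13.7 amino acids in NP 1 (SD over rearrangements 1.71), 14 in NP 2 (SD 1.37) and 15.8 in OVA 1 (SD 1.66). The order was the reverse of that of other V genes, which averaged 14.7, 14.6 and 14 in the same libraries. The most frequent length was 13 in NP 1 (34.9% of rearrangements), 14 in NP 2 (34.1%) and 15 in OVA 1 (38.1%). A length of 13, found in 248 and 191 NP rearrangements, was found in 0 of 84 in OVA 1. That count allows a share of up to 3.57% if rearrangements are taken as independent. The 84 fell into 17 groups of similar CDR3, with 27 in a single group of length 15, so this limit is too tight. NP 1 had a further set of 67 rearrangements (9.42%) with 10 amino acids, against 12 (1.97%) in NP 2. Without its largest group, OVA 1 averaged 16.2.

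**Figure D3:**
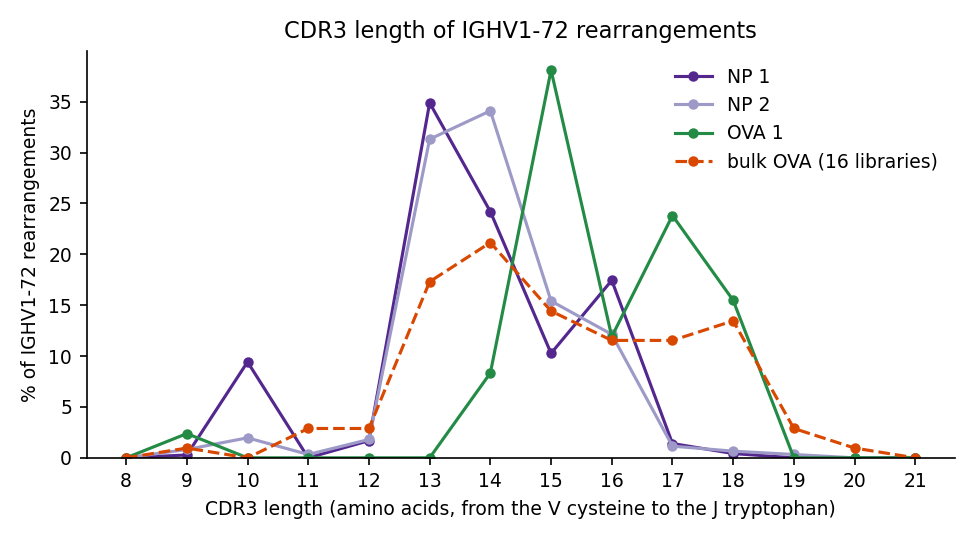
Distribution of CDR3 length in amino acids for IGHV1-72 rearrangements (percent of each set) in NP 1, NP 2, OVA 1 and the 16 bulk OVA libraries together. The NP lines peak at 13 and 14, OVA 1 at 15 with more at 17, and the bulk line at 14.

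The first codon after the V-encoded start separated the NP from the OVA rearrangements. Tyrosine stood at residue 4 of CDR3 in 71.9% of IGHV1-72 rearrangements of NP 1 (511 of 711, interval 68.4 to 75.1) and 75.9% of NP 2 (463 of 610, 72.3 to 79.2). In OVA 1 it was found in 1 of 84 (1.19%, 0.0301 to 6.46). Glutamate took that place in 46 of 84 OVA 1 rearrangements (54.8%) and serine in 21 (25%), whereas glutamate was found in 0 of 711 and 1 of 610 NP rearrangements. Without its largest group, OVA 1 had glutamate in 36.8%, serine in 36.8% and tyrosine in 1.75% of 57 rearrangements. Other V genes had tyrosine at residue 4 in 35.6%, 31.2% and 4.91%. The higher tyrosine share of the NP libraries was therefore seen in both sets of V genes.

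Within the NP libraries, glycine forms of IGHV1-72 used IGHJ2 in a larger share than tyrosine forms, a description with no test. Glycine, the next residue at this place, was found in 91 (12.8%) and 83 (13.6%) rearrangements, of which 92.3% and 88.0% used IGHJ2, compared with 71.4% and 66.7% of the tyrosine rearrangements. By J gene, tyrosine was most frequent with IGHJ4, at 90.9% and 94.9%, and least frequent with IGHJ3, at 33.3% and 47.2%. The mean CDR3 length was 14.2 in both libraries for tyrosine, and 13.0 and 13.6 for glycine.

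**Figure D4:**
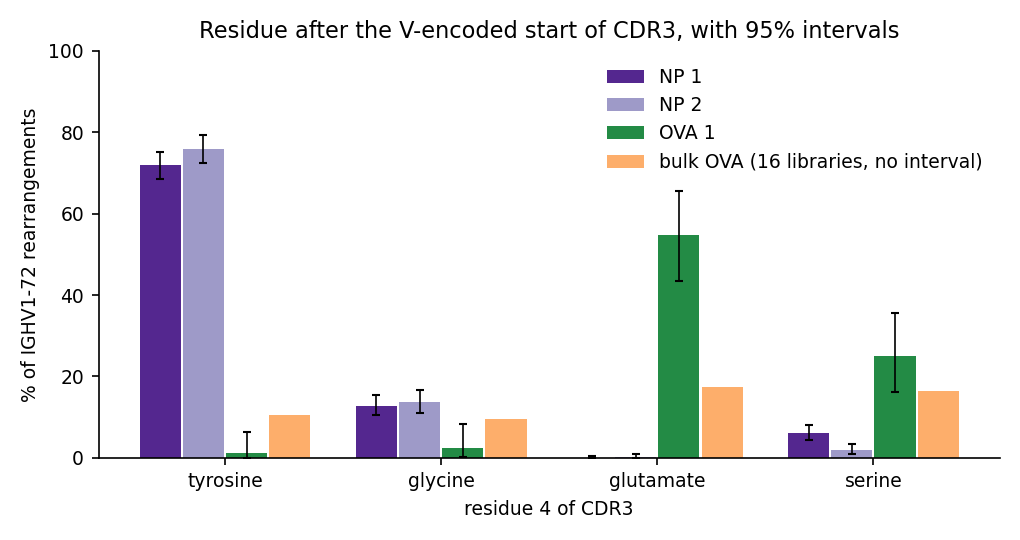
Residue at position 4 of CDR3 in IGHV1-72 rearrangements (percent), with 95% Clopper-Pearson intervals for the single-cell libraries and plain bars for the 16 bulk OVA libraries together. Tyrosine reaches 71.9% and 75.9% in the NP libraries, while OVA 1 has 54.8% glutamate and 25% serine.

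The D segment did not divide the libraries in the same way. A run of at least 10 consecutive bases of IGHD1-1 on the coding strand was found in 47.1% (NP 1), 54.1% (NP 2) and 56.0% (OVA 1) of IGHV1-72 rearrangements, and in 34.7%, 26.7% and 20.9% of those with other V genes. The stretch tyrosine, tyrosine, glycine, serine, which IGHD1-1 can encode, was found in 27.0%, 27.0% and 11.9% of IGHV1-72 rearrangements. Among NP rearrangements the 10-base run was more frequent with tyrosine at residue 4 (56.2% and 62.9%) than with glycine (39.6% and 31.3%). The run was searched over the whole CDR3, and one that covers codon 4 can itself encode that tyrosine. The traits are therefore not independent, and part of this difference is built in.

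NP rearrangements of IGHV1-72 were diverse. The 1107, 966 and 161 cells of NP 1, NP 2 and OVA 1 held 711, 610 and 84 rearrangements, 92, 110 and 17 groups of similar CDR3, and 589, 525 and 68 amino-acid CDR3. The most frequent rearrangement took 25 cells in NP 1 (2.26% of IGHV1-72 cells), 31 in NP 2 (3.21%) and 42 in OVA 1 (26.1%). At an equal 161 cells, the expected number of amino-acid CDR3 was 127 in NP 1 and 125 in NP 2, compared with 68 observed in OVA 1. The inverse Simpson index, the number of equally frequent CDR3 that would give the same chance of drawing the same CDR3 from 2 cells, was 218, 187 and 11. More than 1 rearrangement encoded the same CDR3 in 74 cases in NP 1, 52 in NP 2 and 11 in OVA 1. As a share of the amino-acid CDR3 these were 12.6%, 9.90% and 16.2%, highest in OVA 1.

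NP 1 and NP 2 shared 15 IGHV1-72 rearrangements, identical in every CDR3 base, which is 2.11% and 2.46% of each. They were carried by 62 cells of NP 1 (5.60%) and 59 of NP 2 (6.11%). All 15 used IGHJ2, had tyrosine at residue 4 and held a 10-base run of IGHD1-1, 11 encoded tyrosine, tyrosine, glycine, serine, and their lengths were 13 (7 of them) or 14 (8 of them). The sequence printed as Shared 1 was read in 13 and 10 cells, Shared 2 in 12 and 5, Shared 3 in 5 and 10, Shared 4 in 7 and 7, and Shared 5 in 7 and 5. By amino acids 43 CDR3 were shared, of 589 and 525. The 525 and 420 rearrangements with other V genes shared 0, a count that allows up to 0.571% and 0.714% of each. They shared 3 amino-acid CDR3. Sharing requires the same V gene, and NP 1 and NP 2 used 53 and 49 V genes in all. The rearrangements with other V genes were thus spread thinly, and their 0 cannot show that IGHV1-72 was shared more readily. OVA 1 shared 0 rearrangements with either NP library, with IGHV1-72 or with other V genes. No IGHV1-72 rearrangement of a single-cell library was found in the bulk libraries. With rearrangements taken as independent, this allows up to 0.422%, 0.492% and 3.57% (NP 1, NP 2, OVA 1). The overlap of other V genes with the bulk libraries was not counted, so this 0 cannot be called particular to IGHV1-72.

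The light chains of IGHV1-72 cells differed between the libraries. IGLV1, the V gene of lambda 1, was the light chain of 90.9% of IGHV1-72 cells in NP 1 (970 of 1067 with a light chain read) and 83.9% in NP 2 (797 of 950). In OVA 1 it was found in 2 of 158 cells (1.27%), where 98.7% used a kappa gene, led by IGKV8-27 with 70 cells, IGKV14-111 with 22 and IGKV16-104 with 21. IGLV2 was read in 5.06%, 12.5% and 0% of IGHV1-72 cells. IGLV3 was found in 0 cells of all 3 libraries, which allows up to 0.345%, 0.388% and 2.31% by the exact interval. Cells with other V genes used IGLV1 in 37.7% and 37.8% of NP cases. In OVA 1 such cells used IGLV1 in 2.56% and a kappa gene in 96.2%, so kappa use there was not particular to IGHV1-72. In NP 2 the largest group of similar CDR3 used IGLV1 in 154 of 241 cells, compared with 643 of 709 in the remaining IGHV1-72 cells, while in NP 1 the values were 271 of 279 and 699 of 788.

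IgM was the most frequent heavy-chain class of IGHV1-72 cells in the NP libraries, at 41.6% and 40.5%. IgG1 took 17.3% and 12.4%, IgG2c 15.7% and 17.3%, IgG3 13.6% and 14.8%, and IgG2b 11% and 14.7%. In OVA 1, IgG2b reached 46.0% through the group of 74 cells, and IgM was at 44.1%. That group held 0 IgM cells, so all 71 IgM cells lay among the remaining 87. Cells with other V genes were IgM in 47.9%, 47.7% and 52.2% (NP 1, NP 2, OVA 1), so the lead of IgM in the NP libraries was not particular to IGHV1-72.

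In the bulk libraries IGHV1-72 was a minor V gene. Its 142 sequences fell into 104 rearrangements counted per library, or 97 distinct ones, of which 6 were found in more than 1 library and 77 were read as a single sequence. It made up 1.93% ± 0.821 of rearrangements (SD, n = 16), ranking 16 of 92 V genes behind IGHV8-12 at 6.52%. At day 7 the n libraries had 1.34%, 2.29%, 1.92% and 2.12% (replicates 1 to 4) and the p libraries 1.98%, 0.542%, 1.48% and 2.26%. At day 13 the n libraries had 4.17%, 1.70%, 1.87% and 2.22% and the p libraries 1.97%, 0.741%, 2.75% and 1.58%. The ranges of the 4 groups overlapped, and the p replicate 2 library was the lowest at both days. With 2 to 13 IGHV1-72 rearrangements per library, only large differences could be detected.

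The share of IGHV1-72 did not pass the test in any of the 4 comparisons made over all 92 V genes with edgeR's quasi-likelihood test and Benjamini-Hochberg adjustment. The log2 fold change from day 7 to day 13 was 0.25 ± 0.32 (SE, adjusted p = 0.793), in a comparison that called 4.35% of V genes. Within n it was 0.45 ± 0.41 (adjusted p = 0.574 by edgeR, 2.17% of V genes called). Within p it was 0.05 ± 0.48 (adjusted p = 1 by edgeR). That comparison called 0% of V genes, with 7 at an unadjusted p under 0.05 by edgeR and 5 by DESeq2, which also called 0 after adjustment, and its sign depended on the scaling (-0.10 with TMM). The p libraries compared with the n libraries gave -0.45 ± 0.31 (adjusted p = 0.417 by edgeR, 12.0% of V genes called). That comparison called 4 V genes in place of 11 with the number as a replicate block. Without both p replicate 2 libraries the p against n value was -0.19, the day change within p 0.12 and that over both letters 0.29 (adjusted p = 0.883, 0.990 and 0.794 by edgeR). With DESeq2 the day change within n was 0.78 (adjusted p = 0.439). A filter on low counts kept 15 of the 92 V genes and removed IGHV1-72, so all V genes were kept in these fits.

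Across the 16 bulk libraries, the V genes whose share was most like that of IGHV1-72 were IGHV1-55 (Spearman rho 0.59), IGHV1-22 (0.35) and IGHV3-6 (0.35), among 31 V genes with at least 1% of rearrangements. The values describe shares of the same libraries, which share depth and total.

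Bulk IGHV1-72 rearrangements did not show the J gene and residue 4 of the NP libraries. Of the 104, IGHJ2 made up 30.8%, IGHJ1 25%, IGHJ4 24.0% and IGHJ3 20.2%. The difference from the other V genes of the same library averaged 7.47 percentage points for IGHJ1, 1.08 for IGHJ2, -4.56 for IGHJ3 and -3.99 for IGHJ4. None passed an exact two-sided sign-flip permutation test over 16 libraries (p = 0.108, 0.803, 0.520 and 0.518, adjusted over the 4 J genes 0.432, 0.803, 0.693 and 0.693). Of the residues counted, residue 4 was glutamate in 17.3%, serine in 16.3%, tyrosine in 10.6% (11 of 104) and glycine in 9.62%. Proline was not counted but recurred. It stood at residue 4 of the bulk IGHV1-72 rearrangement with the most sequences (9 in 2 libraries, IGHJ2, 14 amino acids). Similar proline forms of the same J gene and length were found in further libraries. Other V genes of the bulk libraries had tyrosine there in 4.83%.

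The CDR3 of bulk IGHV1-72 rearrangements averaged 15.1 amino acids (SD 2.12 over 104 rearrangements), compared with 14.2 for the other V genes. As a mean of differences within libraries, it was 0.605 amino acids longer (higher in 13 of 16 libraries, exact two-sided sign-flip permutation test, p = 0.0313). Adjusted over the 11 permutation tests of the bulk libraries, the p was 0.345. With the n and p libraries of the same day and number averaged into 1 unit the exact permutation p was 0.0859, and leaving out single libraries gave 0.0011 to 0.0626 by the same permutation test. Without n day 7 replicate 1, n day 7 replicate 3, p day 7 replicate 3, p day 7 replicate 4 or p day 13 replicate 1 that p was above 0.05. With only libraries of at least 5 IGHV1-72 rearrangements the difference was 1.07 (exact permutation p = 0.00195), and without both p replicate 2 libraries it was 0.732 (exact permutation p = 0.0200). By group, IGHV1-72 averaged 15.86 at n day 7 (other V genes 14.52) and 14.94 at p day 7 (14.14). At day 13 it averaged 13.97 in n (14.07) and 14.43 in p (14.03). The length difference was thus larger at day 7 and absent in n at day 13, a description that was not tested.

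Somatic V mutations of IGHV1-72 were more numerous at day 13 than at day 7 by less than the spread between day 13 libraries. Over both letters the SD between libraries was 0.680 at day 7 and 1.85 at day 13 (n = 8 each). A rearrangement's mutations were counted as differences from the germline V over its aligned bases, averaged over its sequences. At day 7 the n libraries had 0.889, 1.73, 2.86 and 1.67 mutations per IGHV1-72 rearrangement and the p libraries 0.750, 1.5, 0.889 and 1.59. At day 13 the n libraries had 1.92, 3.33, 6 and 0.714 and the p libraries 0.250, 4, 2.40 and 2. Each day 13 group spanned the range of its day 7 group, and the highest value (6, n day 13 replicate 3) rested on 4 rearrangements. The day difference was 1.09 mutations (exact permutation test within n and p, two-sided p = 0.141, adjusted over 11 tests 0.518). It was 1.21 within n (exact permutation p = 0.371) and 0.981 within p (exact permutation p = 0.314). Without p day 13 replicate 1 the day difference was 1.41 (exact permutation p = 0.0416), and without n day 13 replicate 4 it was 1.47 (exact permutation p = 0.0392). Without n day 13 replicate 3 it was 0.593 (exact permutation p = 0.3). With only libraries of at least 5 IGHV1-72 rearrangements it was 0.429 (exact permutation p = 0.467), and -0.466 within n (exact permutation p = 0.6). Without both p replicate 2 libraries, which share many rearrangements, the difference was 0.841 (exact permutation p = 0.249).

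**Figure D5:**
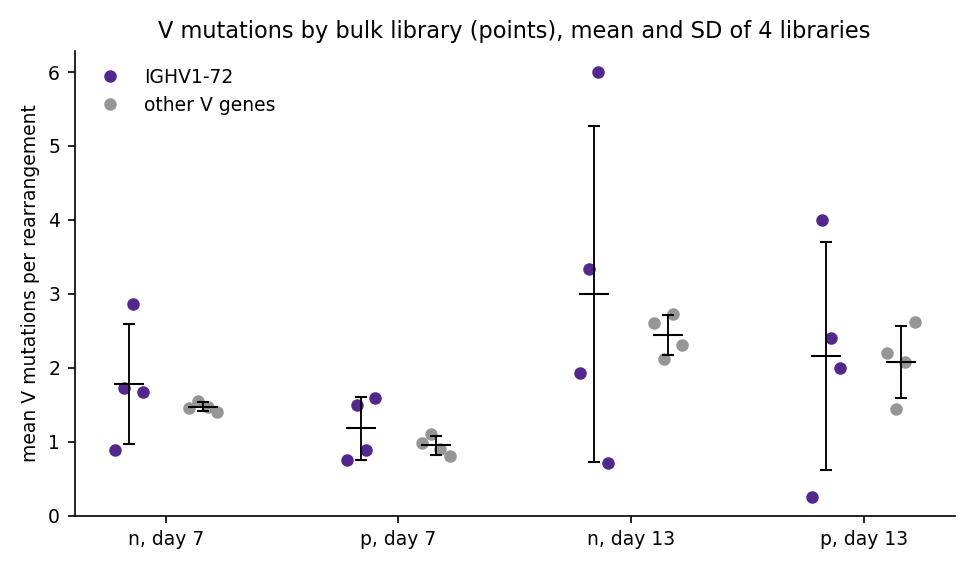
Mean number of V mutations per rearrangement in each bulk library (points) for IGHV1-72 and for all other V genes, by letter and day, with the mean and SD of 4 libraries. IGHV1-72 ranges from 0.250 to 6 at day 13 and overlaps the other V genes, which lie between 0.813 and 2.73 over both days.

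IGHV1-72 and the other V genes could not be separated by their number of mutations. Other V genes had 1.47 ± 0.0629 (n) and 0.952 ± 0.125 (p) mutations per rearrangement at day 7, and 2.44 ± 0.275 (n) and 2.08 ± 0.487 (p) at day 13 (SD, n = 4 each). IGHV1-72 had 0.293 more on average over the libraries (exact sign-flip permutation test, p = 0.408), and its day difference exceeded that of the other V genes by 0.0440 (exact permutation p = 0.956). Without both p replicate 2 libraries these values were 0.124 and -0.343 (exact permutation p = 0.740 and 0.623). The p libraries had 0.717 fewer IGHV1-72 mutations than the n libraries (exact permutation p = 0.336).

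Pooled over libraries, larger shares of rearrangements lay at both ends of the distribution at day 13, a description without replicate error. Of 62 rearrangements at day 7, 18 (29.0%) had no mutation and 10 had at least 3. Of 42 at day 13, 19 (45.2%) had no mutation and 15 had at least 3. Of these 42, 13 came from n day 13 replicate 1, where 38.5% carried a mutation. By library, the share with a mutation ran from 55.6% to 100% at day 7 and from 25% to 100% at day 13. The median number was 1 at both days, and the highest 13 and 12. Counted as the percent of rearrangements with any mutation, the day difference thus had the other sign, at -7.56 percentage points (exact permutation p = 0.482).

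By region, CDR1 and CDR2 carried 0.887 mutated positions per 100 covered bases at day 7 and the frameworks 0.532. At day 13 the values were 1.30 and 0.709. Replacement changes made up 71.8% of changes at day 7 and 64.9% at day 13. These values pool rearrangements over libraries and have no replicate error.

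The positions changed most often are given with bases numbered from 1 at the start of the printed germline V. Position 189 in framework 3 was mutated in 11 of 104 rearrangements. The most frequent change there, G189A, was found in 5 of the 11 and is silent. Other changes of that base turn the lysine codon into asparagine, so most of the 11 were not silent. Position 30 in framework 1 followed with 8 of 93 (mostly G30A, silent), and position 170 in CDR2 with 8 of 104 (mostly G170A, glycine to aspartate). Position 197 in framework 3 was mutated in 7 of 104, most often as G197A, serine to asparagine. Positions 93, 177, 198 and 284 were tied at 6 each, and all 6 changes at position 284 were A284T, tyrosine to phenylalanine. At codon 33, whose change from tryptophan to leucine by G98T is known from high-affinity anti-NP antibodies, 0 of 103 covered bulk OVA rearrangements carried G98T, which allows a share of up to 2.91%. The single-cell contig tables were used only for gene calls and CDR3, so V mutations of the NP cells were not analysed here.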

How the data were processed

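Single-cell gene expression and immunoglobulin libraries (2 NP, 1 OVA) and 16 bulk OVA heavy-chain libraries were used. Cell Ranger and mm10 are named in the submitters' processing notes; no source used here gives versions or the tools behind the bulk table. In the deposited gene and contig tables the values are UMI counts, whole numbers that were not normalized, per the file headers. The deposited bulk table gives V identity as a percent of aligned V bases, computed by the authors, with alignment positions per the file headers.

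Per cell, the productive heavy contig with the most UMIs was kept. Bulk V genes were the first call with the allele removed. The bulk CDR3 was read between the deposited framework 3 end and J alignment, and 95.2% of sequences gave an in-frame one. Mutations were counted against the deposited germline alignment. Doublets were not called; leaving out cells in which several productive heavy chains were read was an alternative.

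V gene counts per bulk library (2 to 13 for IGHV1-72, of 176 to 607) were tested with edgeR 4.0.16 (R 4.3.3) on library totals without further scaling, and with DESeq2 1.42.0 as an alternative, calling adjusted p at most 0.05. The filter planned for this fit removed IGHV1-72, so the fit without a filter, planned as an alternative, is reported instead; that switch was made after the files were seen. Other bulk measures were compared by exact permutation tests (Python 3.11.15). Both kinds of test were checked on simulated data. For the day comparison of the 92 V genes with edgeR, a first simulation (12 genes changed by 4 times, shares not rebalanced, filtered fit) recovered 48.3% of changed genes and called 15.7% of the others it tested. It was replaced by one with 6 changed genes, rebalanced shares and the reported fit, which gave 91.7% and 0.953%; why the first differed was not tested. Single-library shares have 95% Clopper-Pearson intervals, and the limit for a count of 0 is 3 counts of the total. Both treat cells or rearrangements as independent, although members of a clone are related, so they are too narrow. Same-numbered n and p libraries did not all correlate above 0.1, so the reported fits have no replicate block, although at day 7 same-numbered libraries shared more rearrangements than other pairs; values with the block stand in the closing section.

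The gene and the lists were chosen with earlier results of these data known. Named were, besides IGHV1-72, the 3 V genes most like it across libraries, IGHJ1 to IGHJ4, IGHD1-1, lambda V genes, the 3 most frequent kappa V genes of IGHV1-72 cells, the shared rearrangements and the 5 V positions most often mutated, with ties; codon 33 was added from what is known of anti-NP antibodies. A germinal center marker, and sums that include it, are not reported here.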

Additional observations from a re-analysis of the deposited data

How the results depend on the processing

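Alternatives moved the single-cell differences in size and turned no direction. As NP mean minus OVA 1, the IGHV1-72 share differed by 51.0 percentage points (50.2 to 51.9 without an NP library), with 31.1 when groups of similar CDR3 were counted and 53.3 without the largest OVA 1 group. The IGHJ2 difference was 33.9 points (32.4 to 35.4 without an NP library), with 23.0 by cells, 31.7 in cells passing the gene table limits, 17.1 by groups and 63.8 without that OVA 1 group. CDR3 length differed by -1.97 (-2.10 to -1.84), with -1.04 by groups and -2.36 without the OVA 1 group. Tyrosine at residue 4 differed by 72.7 points (70.7 to 74.7), with 59.4 by groups. The number of shared rearrangements was 13 to 15. It could not be computed without an NP library.

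The bulk day change of the share within p, 0.05 on the log2 scale, changed sign with TMM (-0.10) and with all sequences, with or without a CDR3 (-0.060), and spanned -0.21 to 0.34 without single libraries. For both letters that range was 0.05 to 0.40, for n 0.05 to 0.57, and for p against n -0.58 to -0.25. The other alternatives spanned 0.07 to 0.45 for both letters, 0.24 to 0.78 for n, -0.10 to 0.42 for p and -0.52 to -0.19 for p against n. IGHV1-72 was not tested with the filter on low counts, which removes it. Calls over all V genes, 4, 2, 0 and 11 (day, day in n, day in p, p against n), spanned 0 to 7, 0 to 3, 0 to 1 and 2 to 11 over the other settings.

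Of the mutation results, counting the percent of rearrangements with any mutation gave -7.56, -13.1 and -2.03 points for the day difference (all, n, p), 8.73 for p against n and -15.4 for the day difference beyond other V genes. With only libraries of at least 5 IGHV1-72 rearrangements, n gave -0.466, p against n 0.186, the day difference beyond other V genes -0.656, and IGHV1-72 minus other V genes -0.0186. Without both p replicate 2 libraries the day difference beyond other V genes was -0.343. Without single libraries the day difference spanned 0.593 to 1.47 (n 0.205 to 1.97, p 0.368 to 1.62, the highest past the threshold without p day 13 replicate 1, exact permutation p = 0.0286), p against n -1.10 to -0.216, the day difference beyond other V genes -0.410 to 0.402, and IGHV1-72 minus other V genes 0.0944 to 0.443.

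The bulk CDR3 difference spanned 0.481 to 0.776 without single libraries and 0.589 to 1.07 over the other alternatives (exact permutation p = 0.00195 to 0.0859), the highest with only libraries of at least 5 IGHV1-72 rearrangements. It stayed at 0.605 with n and p averaged by number. For J genes, IGHJ2 turned to -1.45 against other IGHV1 genes, -5.40 without rearrangements seen at another day or number and -1.28 without both p replicate 2 libraries, and IGHJ4 to 1.16 and 2.18 under the first and second of these. Without single libraries IGHJ1 spanned 5.07 to 9.21, IGHJ2 -0.233 to 3.06, IGHJ3 -9.82 to -3.06 and IGHJ4 -7.67 to -2.14. The settings that leave out the shared rearrangements or the p replicate 2 libraries, use mutations per 100 bases, count CDR3 groups or drop the OVA 1 group were chosen after seeing the data. With the number as a replicate block, p against n was -0.38 for the share (adjusted p = 0.653 by edgeR) and -0.717 for mutations (exact permutation p = 0.234), with 4 V genes called in place of 11. The cause of these changes was not tested. Few IGHV1-72 sequences per bulk library limit every bulk result.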
